A study of Mus musculus with 135 samples.

Results

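DNA damage response and repair genes were followed in single haematopoietic stem cells (HSCs) of a young and an old mouse. The list was given by name and holds 38 genes, and all 38 were present among the 15181 genes of the read count table. Each gene was compared between young and old cells, and between cells with and without a transcript of the mitotic regulators *Ccna2*, *Ccnb1*, *Cdk1* and *Cdc25c*, none of which belongs to the list.

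The study asked which genes change in individual HSCs with age. Bone marrow cells with the Lin−Sca-1+c-Kit+ (LSK) CD150+CD48− phenotype were sorted from C57BL/6 mice carrying a *Vwf*-eGFP reporter, in which the promoter of the von Willebrand factor gene drives a green fluorescent protein. Young cells came from 1 mouse aged 2 to 3 months and old cells from 1 mouse aged 20 to 25 months and both carried the reporter. Each cell was captured on a microfluidic chip, and its amplified cDNA was sequenced from the whole transcript.

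Damaged DNA is handled by several routes. Strand breaks are sensed by the *Mre11a*, *Rad50* and *Nbn* complex and by the kinases Atm and Atr, which signal through Chek1 and Chek2. Broken ends are rejoined directly by the Ku and DNA-PK proteins, or are copied from the sister chromatid by homologous recombination, which depends on *Brca1* and *Brca2* and is available only after replication. Altered bases are removed by base excision, bulky lesions by nucleotide excision and replication errors by mismatch repair. Adult HSCs divide rarely and are known to rely largely on end joining, whereas many genes of recombination and replication-linked repair are transcribed mainly in S phase.

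Of the cells deposited, 52 of 61 young and 62 of 74 old cells passed the limits on mapped reads, mitochondrial reads and detected genes. Between 273236 and 5688706 reads per young cell were counted on genes (median 2798990), and between 276316 and 4086659 per old cell (median 2116024). The level of a gene is the mean over cells of log2(CPM + 1), where CPM is the count scaled to 1000000 counted reads of the cell, and an expressing cell had a value above 2 on that scale. Every one of the 114 cells expressed at least 1 of 12 HSC markers, *Meis1* being expressed in all 114. The others varied widely, from *Fgd5* in 6 young and 14 old cells and *Slamf1*, the gene of CD150, in 9 and 15 to *Kit* in 49 and 61. *Cd48*, which the gate excludes, was expressed in 1 young and 0 old cells. Of the lists for other blood lineages, only part was in the table. Among the markers present, *Prtn3*, a granule protease, was expressed in 38 young and 59 old cells, *Elane* in 0 and 1 and *Mpo* in 2 and 1. The B cell marker *Cd79b* was expressed in 12 young and 16 old cells and the T cell marker *Cd3d* in 16 and 16. The summed level of 7 granulocyte and monocyte markers ranged from 0 to 796 CPM in young and from 0.379 to 1014 CPM in old cells, that of 6 megakaryocyte markers from 0 to 1116 and from 0 to 2892 CPM, and their part in the results was not tested. Expression of sex-linked genes was unlike between the mice, *Xist* being expressed in 50 young and 8 old cells and one or more of 4 genes of the Y chromosome in 2 and 58. Cells of 1 mouse are not replicates, so no p-value was computed. The ages were also processed as separate experiments, so age, mouse, experiment and sex-linked expression cannot be told apart. Differences are described by size, a gene being called lower or higher where its mean log2 level differed by at least 1, and every interval below covers counting error only.

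The upstream sequence of these genes was examined because many genes of replication-linked repair are transcribed mainly in S phase. RefSeq windows of 250 bases before to 50 bases after a transcription start (GRCm38.p6) were at hand for 31 of the 38 genes. The letters TTTCCCGC, TTTGGCGC, TTTCGCGC or TTTGCCGC, which resemble the binding site of the E2F factors of S-phase transcription, were searched on both strands. They were found for 5 of the 31 genes (16.1%), *Chek2*, *Brca2*, *Lig1*, *Xrcc6* and *Msh6*, and for 704 of 27025 genes of the whole set (2.61%). All 5 genes lie on the plus strand, and the stretches below run 5′ to 3′ with the matched letters, or their reverse complement, in capitals.
*Chek2*, chr5:110839820-110839849: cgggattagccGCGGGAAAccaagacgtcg
*Brca2*, chr5:150522442-150522471: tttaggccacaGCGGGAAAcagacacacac
*Lig1*, chr7:13278841-13278870: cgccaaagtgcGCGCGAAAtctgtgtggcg
*Xrcc6*, chr15:82016312-82016341: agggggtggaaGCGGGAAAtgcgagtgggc
*Msh6*, chr17:87975054-87975083: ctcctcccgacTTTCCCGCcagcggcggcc

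The matched letters began at position -152 from the start of the window's transcript for *Chek2*, at -168 for *Brca2* and at -46 for *Xrcc6*, and at +27 and +16, inside the transcript, for *Lig1* and *Msh6*. In the GENCODE vM21 annotation the *Lig1*, *Msh6* and *Xrcc6* stretches overlapped the untranslated part of an exon of their own gene. The *Xrcc6* stretch did so in a longer transcript that starts upstream, and it also lay within *Desi1*. The *Chek2* and *Brca2* stretches overlapped no transcript of the basic set of that annotation. Both lay inside the RefSeq bounds of their own genes, which begin at 110839800 for *Chek2* and 150522297 for *Brca2*. The CHR letters TTTGAA or TTCGAA were found for 2 of the 31 genes (6.45%) against 21.7% of all genes, and CCAAT for 19 (61.3%) against 41.1%. A match is a description of these letters and not evidence that a factor binds there.

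Repair genes were, on balance, at lower levels in old than in young HSCs. Of the 38 genes, 29 had a lower (76.3%, against 53.8% of all genes with a count) and 9 a higher mean level in old cells. The median difference, old minus young, was -0.40 on the log2 scale, against -0.02 over all 15014 genes with a count. Of the 38, *Lig1*, *Msh6*, *Brca2*, *Xpc*, *Xrcc6* and *H2afx* were lower by at least 1, which makes 6 genes (15.8%, where 4.49% of all genes were that much lower), and 0 were higher by at least 1 (3.91% of all genes). Since rarely detected genes cannot differ much, the same was counted over genes expressed in at least 10% of cells, where the 6 were 19.4% of 31 repair genes against 6.98% of 9374 genes, with 6.24% of those genes higher by at least 1. The other 7 repair genes were expressed in fewer cells. Of the 6 lower genes 4 were among the 31 with a promoter window, and all 4 held the E2F-like letters, as did 1 of the other 27. The rest of the 6 had no window. The letters were chosen with earlier results known, and their share among all genes lower in old cells was not counted. A link between these letters and the age difference was therefore not tested. The count of lower genes depended on the scale, and was 14 with a pseudocount of 0.1 CPM and 15 by the ratio of mean CPM. Over all cells deposited it was 5, *H2afx* (-0.98) and *Xrcc6* (-0.71) then being short of 1 and *Chek2* (-1.14) past it.

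**Figure D1:**
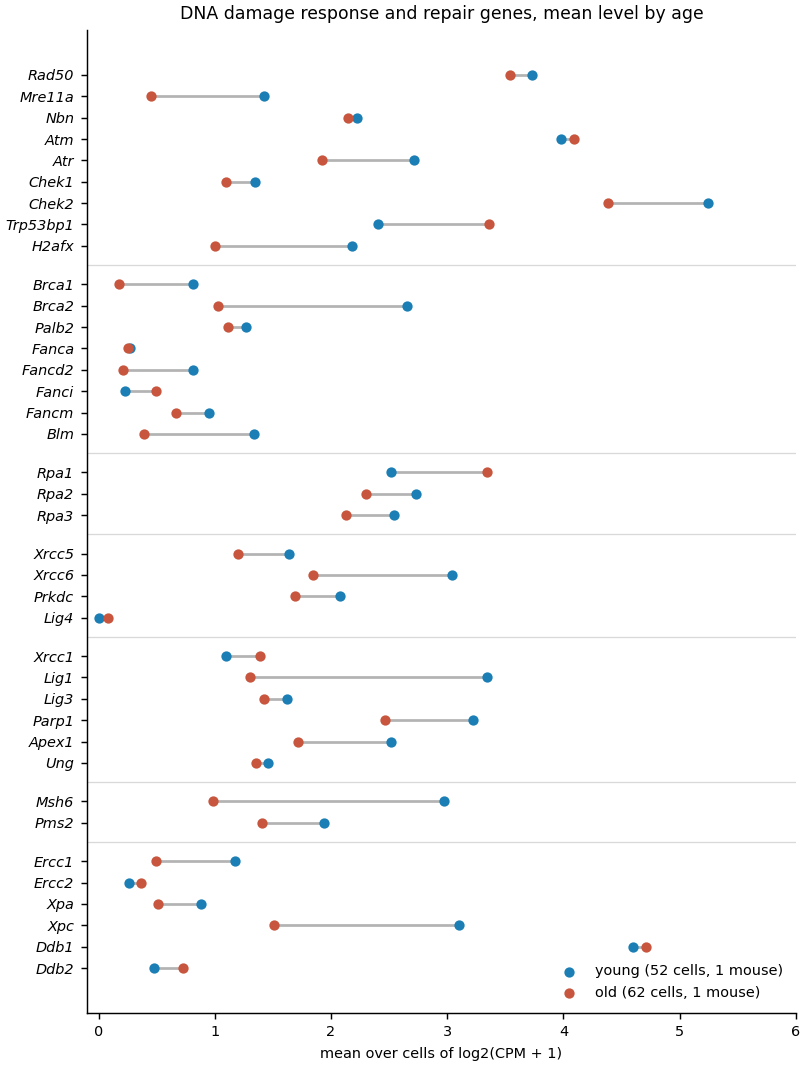
Mean log2(CPM + 1) of the 38 genes in young (blue, 52 cells) and old cells (red, 62 cells), 1 mouse per age, with lines dividing the repair routes from strand break sensing at the top to nucleotide excision at the bottom. The widest gaps, with the old mean to the left, are those of *Lig1* (3.35 and 1.30), *Msh6* (2.97 and 0.99) and *Brca2* (2.65 and 1.03), while *Trp53bp1* and *Rpa1* lie the other way.

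**Figure D2:**
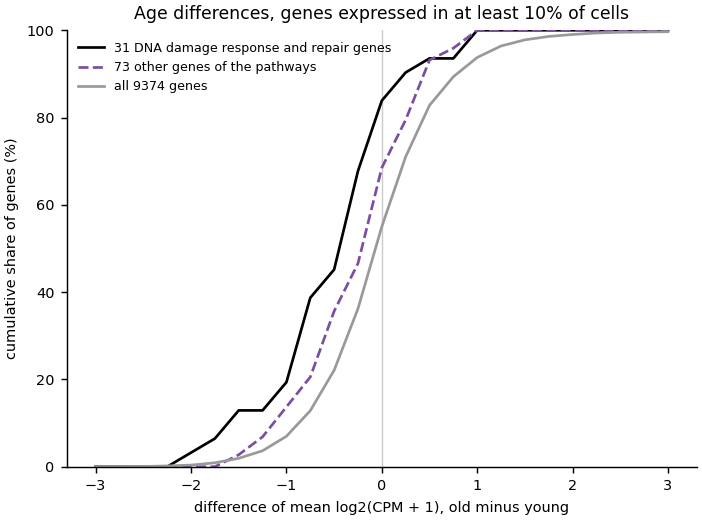
Cumulative share of genes (vertical axis, %) by the age difference of the mean log2(CPM + 1) (horizontal axis, old minus young), for genes expressed in at least 10% of cells. At a difference of -1, the curve of 31 repair genes has reached 19.4% and that of all 9374 genes 6.98%.

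The share of expressing cells was larger in young cells for 29 genes (76.3%, against 49.8% of all genes with a count) and larger in old cells for 9. After every cell was thinned to 250000 reads it was larger in young cells for 26 genes (68.4%, against 49.5% of all genes) and in old cells for 12. Among expressing cells alone, the mean level was higher in old than in young cells for 15 of the 37 genes expressed at both ages and lower for the other 22. For most genes the median cell was at or near 0 and 1 cell could hold a large part of the reads. A single cell held at least 50% of the summed reads for 12 genes in young cells and for 11 in old cells.

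Cells expressing a mitotic gene held more repair transcripts than the other cells in the young mouse. Such cells, called cycling here, had a value above 2 for at least 1 of the 4 mitotic genes. They numbered 27 of 52 in young (51.9%, interval 37.6 to 66) and 13 of 62 in old HSCs (21%, interval 11.7 to 33.2). The other cells could hold reads of these genes below that limit. After thinning, 5 of the 25 other young cells and 0 of the 49 other old cells passed it. In young cells, 31 genes were higher in cycling than in other cells (81.6%, against 55.9% of all genes), 6 were lower and 1 was at 0 in both. The median difference was 0.54, against 0.06 over all genes. Higher by at least 1 were 13 of the 38 (34.2%, against 13.1% of all genes), and of the 31 more widely expressed 12 were (38.7%, against 20.2%). Lower by at least 1 were *Trp53bp1* and *Ddb1*, 5.26% of the list against 2.51% of all genes. Cycling young cells also expressed more genes of any kind, with a median of 4614 against 3862 in the other young cells, and the part of this in the difference was not tested. In old cells the median difference was smaller, 0.27 against 0 over all genes, with 7 genes higher by at least 1 (18.4%, against 7.85% of all genes) and 1, *Xrcc1*, lower (2.63%, against 5%). Leaving out 1 old cell moved that median to between 0.05 and 0.47. *Rad50*, *Brca2*, *Blm* and *Lig1* were higher by at least 1 in cycling cells of both ages (10.5% of the list, against 2.24% of all genes). In old cells the difference of *Blm* was 0.31 when cells with at least 1000000 mapped reads alone were used, and that of *Lig1* was 0.65 after thinning.

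Which cells count as cycling changed the values of single genes. A wider list, which adds *Mki67*, *Top2a*, *Rrm2* and *Uhrf1* to the 4 genes and was added after seeing the data, placed 40 young and 26 old cells among the cycling. With it the median cycling difference was 0.88 in young and 0.56 in old cells. The difference changed sign for 8 of the 38 genes in young (21.1%, against 25.3% of all genes) and for 14 in old cells (36.8%, against 26.9%). The values with the wider list are therefore given beside the genes concerned.

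**Figure D3:**
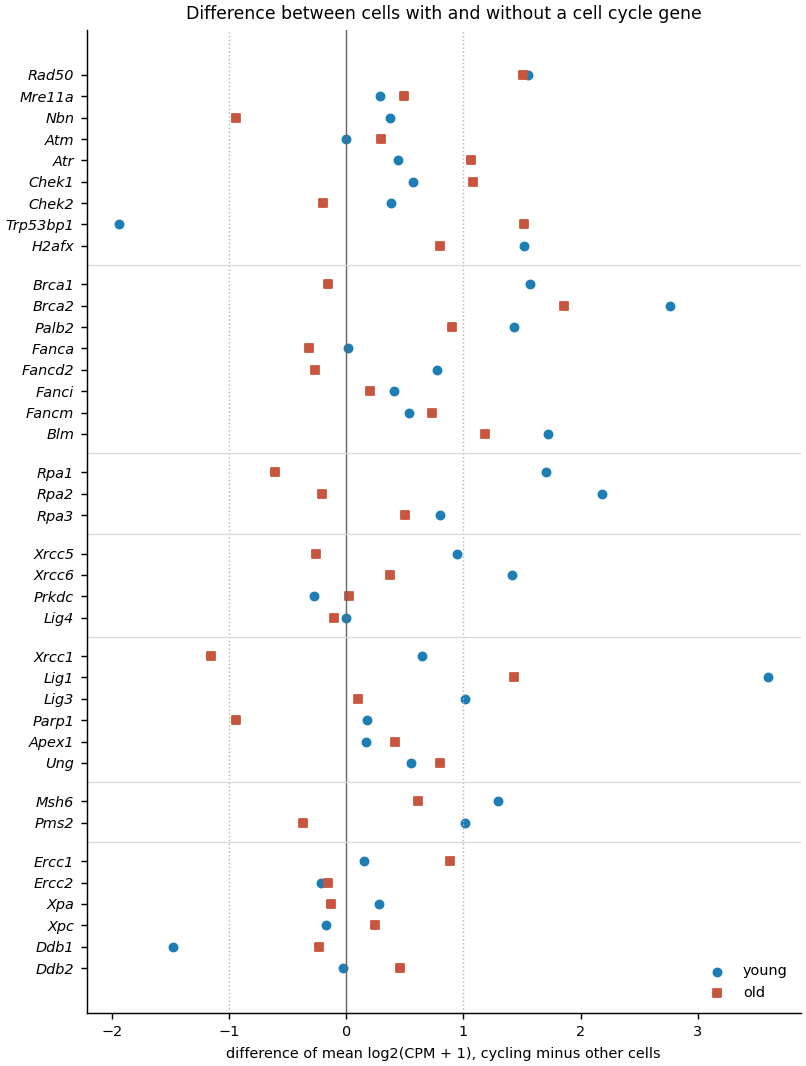
Difference in mean log2(CPM + 1) between cycling and other cells for the 38 genes, in young (blue circles, 27 against 25 cells) and old HSCs (red squares, 13 against 49 cells), with dotted lines at -1 and 1. *Lig1* and *Brca2* lie farthest to the right in young cells (3.60 and 2.76), and *Trp53bp1* lies at -1.94 in young and at 1.52 in old cells.

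Among the 9 genes of strand break sensing and the checkpoint, 7 were lower and 2 higher in old cells, with a median difference of -0.25. *H2afx* (chromosome 9, 44334715 to 44336077), the histone variant phosphorylated around breaks, had a median of 0.61 and a highest value of 9.24 in young cells, and 0 and 7.97 in old cells. The lowest value was 0 at both ages, so the cells of the ages overlapped. Its mean level was 2.18 ± 2.73 (SD, 52 cells) in young and 1.0 ± 1.91 (SD, 62 cells) in old cells, a difference of -1.17 (-0.98 over all cells deposited, short of 1). Young cells expressing it made up 36.5% (19 of 52, interval 23.6 to 51) and old cells 12.9% (8 of 62, interval 5.74 to 23.9), and 5594 and 1148 reads were counted. Of these reads, 1 young cell held 46.4% of the young and 1 old cell 49.8% of the old. *H2afx* was also higher by 1.51 in cycling than in other young cells, and by 0.80 in old cells.

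*Mre11a*, the nuclease of the break-sensing complex, had a median of 0 at both ages, with a highest value of 8.95 in young and 5.63 in old cells. The gene was expressed in 10 young and 6 old cells, with means of 1.42 and 0.45, a difference of -0.97, just short of 1. Its partners did not share this size of difference, *Rad50* being at 3.73 in young and 3.54 in old cells and *Nbn* at 2.23 and 2.15. *Rad50*, which tethers broken ends, ran from 0 to 9.38 with a median of 5.03 in cycling young cells and from 0 to 9.53 with a median of 2.39 in the other young cells. It was higher in cycling cells by 1.55 in young and 1.51 in old HSCs. *Nbn* was higher in cycling young cells by 0.38 but lower in cycling old cells by 0.94 (difference -0.94), and 1 old cell held 51.8% of its old reads.

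The kinases varied in different ways. *Atm*, the kinase activated by double strand breaks, was one of the most widely expressed of the list, with 35 young and 47 old expressing cells, and its level was 3.98 and 4.09. Its level was 3.98 in cycling and 3.98 in other young cells. *Atr*, which responds to single-stranded DNA at stalled forks, was at 2.72 in young and 1.93 in old cells (23 and 19 expressing cells), a difference of -0.79. *Chek1*, the kinase downstream of Atr, was at 1.35 and 1.09 and was higher in cycling cells by 0.57 in young and 1.09 in old HSCs. *Chek2*, the kinase downstream of Atm, was found above the limit in 52 of 52 young and 60 of 62 old HSCs, more than any other gene of the list. Its values ran from 2.43 to 9.87 with a median of 4.62 in young cells and from 1.53 to 9.0 with a median of 4.30 in old cells. The difference in its mean level was -0.86 (5.24 and 4.38), or -1.14 over all cells deposited, and its counted reads were 12431 and 4608.

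*Trp53bp1*, which favours end joining at breaks, went the other way and had the largest positive age difference of the 38 genes, 0.95 in mean level. Its median was 0.49 in young and 2.74 in old cells, its highest values were 8.35 and 10.05, and 24 young and 33 old cells expressed it. In young cells, its mean was 1.47 in cycling and 3.41 in other cells, and in old cells 4.56 and 3.04. The age difference was 3.08 among cycling cells and -0.37 among the others, with 27 young and 13 old cells on the cycling side, and 1 cell held 77.9% of the reads of the 13. With the wider list of cycle genes the age difference was 1.05 among cycling and 0.85 among other cells, and the difference between cycling and other young cells was -0.04. *Map1a* and *Tubgcp4* overlap this gene, and the counting is not stated to separate strands.

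Of the 8 genes of homologous recombination and the Fanconi pathway, 7 were lower and 1 higher in old cells (median -0.44), and all 8 were higher in cycling young cells (median 1.10). *Brca2* (chromosome 5, 150522297 to 150570147), a central gene of homologous recombination, carried the largest difference of the group in both comparisons. Its values ran from 0 to 9.45 with a median of 0.59 in young cells and from 0 to 9.99 with a median of 0 in old cells, so the ranges overlapped almost wholly. Its mean was 2.65 ± 3.26 (SD, 52 cells) and 1.03 ± 2.39 (SD, 62 cells), a difference of -1.62. Expressing cells were 40.4% of the young (21 of 52, interval 27 to 54.9) and 16.1% of the old (10 of 62, interval 8.02 to 27.7). By the ratio of mean CPM the difference was -0.72, 1 old cell holding 48.4% of the old reads.

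The split by cycle class was wider than that by age for *Brca2* before thinning. In young HSCs, 16 of 27 cycling and 5 of 25 other cells expressed it, with medians of 3.89 and 0, and in old HSCs 4 of 13 and 6 of 49. Its mean was higher in cycling cells by 2.76 in young and by 1.86 in old cells. After thinning these differences were 1.64 and 1.04 and the age difference was -1.55, so the order did not hold in old cells. *Blm*, a helicase that resolves recombination intermediates, was expressed in 12 young and 5 old cells, with a median of 0 at both ages and highest values of 7.95 and 6.93. Its mean was 1.33 and 0.39, a difference of -0.95. In cycling cells it was higher by 1.72 in young and 1.18 in old HSCs. The promoter windows of *Blm* held no E2F-like letters.

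The other recombination genes were found in few cells. *Brca1*, which works in end resection and with *Palb2* in loading Brca2, was expressed in 5 young and 1 old cells, and the 5 young cells were all cycling. One of them held 75.4% of its young reads. *Palb2* was expressed in 11 cells of each age (levels 1.27 and 1.11) and was higher in cycling cells by 1.43 in young and 0.90 in old HSCs. *Fancd2* and *Fanci*, the pair that is ubiquitinated at crosslinks, were both rare, *Fancd2* being expressed in 6 young and 2 old cells (0.81 and 0.21) and *Fanci* in 2 and 6 (0.23 and 0.49). *Fanca*, of the core complex that ubiquitinates them, was expressed in 3 cells of each age (0.27 and 0.25). *Fancm*, which brings that complex to DNA, was expressed in 9 young and 8 old cells (0.95 and 0.66).

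The 3 subunits of RPA, the complex that coats single-stranded DNA in replication and repair, differed in direction. *Rpa1* ran from 0 to 9.45 with a median of 0.45 in young cells and from 0 to 10.52 with a median of 1.84 in old cells, with means of 2.52 and 3.34, a difference of 0.82. *Rpa2* ran from 0 to 9.69 with a median of 0.59 in young cells and from 0 to 9.98 with a median of 1.12 in old cells, its mean being 2.73 and 2.30. *Rpa3* was at 2.54 and 2.13. All 3 were higher in cycling young cells, *Rpa2* by 2.19, *Rpa1* by 1.70 and *Rpa3* by 0.80, whereas in old cells *Rpa1* and *Rpa2* were lower in cycling cells (differences of -0.61 and -0.21) and *Rpa3* was higher by 0.50. The age difference of *Rpa1* was 1.84 among other cells and -0.48 among cycling cells, and that of *Rpa2* 0.75 and -1.64. With the wider list of cycle genes both were higher in cycling old cells, *Rpa1* by 0.75 and *Rpa2* by 0.51, and the age differences among other and cycling cells were 2.01 and 0.81 for *Rpa1* and 1.52 and -0.78 for *Rpa2*. After thinning, which also changed the class of some cells, the cycling difference of *Rpa1* in young cells was 0.11.

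In the end joining group, 3 of 4 genes were lower in old cells. *Xrcc6* (chromosome 15, 81987833 to 82040085) encodes Ku70, which binds broken ends together with Ku80, the product of *Xrcc5*. *Xrcc6* ran from 0 to 10.02 with a median of 1.10 in young cells and from 0 to 9.75 with a median of 0 in old cells, so that the highest cells of both ages were alike. Its mean was 3.04 ± 3.58 (SD, 52 cells) and 1.85 ± 3.33 (SD, 62 cells), a difference of -1.19, and 42.3% of young (22 of 52, interval 28.7 to 56.8) and 24.2% of old cells (15 of 62, interval 14.2 to 36.7) expressed it. The difference was -0.71 over all cells deposited and -0.33 by the ratio of mean CPM. Expressing cells of the old mouse had the higher mean level, 7.36 against 6.80.

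*Xrcc5* differed less, with a median of 0 at both ages, highest values of 9.64 and 8.98 and means of 1.64 and 1.2. It was higher in cycling young cells by 0.94, as was *Xrcc6* by 1.41, while in old cells the values were -0.26 and 0.38. The difference of *Xrcc5* in old cells was 0.96 with the wider list of cycle genes. That of *Xrcc6* in young cells was 0.19 after thinning and 0.72 where 2 of the 4 mitotic genes were required. *Prkdc*, the kinase that Ku recruits, was expressed in 14 young and 18 old cells (2.08 and 1.69). Its difference between cycling and other young cells was -0.28, which became 0.90 with the wider list of cycle genes, and 1 cell held 63.5% of its young reads. *Lig4*, the ligase that completes end joining, was expressed in 1 old cell, with 43 reads. In young cells 0 reads were counted, and 0 of 52 cells allows a share of cells with a counted read of up to 5.77%, which does not limit the share of cells expressing the gene.

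Base excision and single strand break repair held the largest difference of the list in the main setting, that of *Lig1*. The rank depended on the setting. Over all cells deposited the difference of *Lig1* was -1.57 and that of *Msh6* -2.07, and by the ratio of mean CPM they were -1.72 and -3.29. *Lig1* (chromosome 7, 13277175 to 13311426), the ligase that joins Okazaki fragments and closes long-patch repair, ran from 0 to 10.26 with a median of 1.12 in young cells and from 0 to 9.39 with a median of 0 in old cells. Expressing cells were 46.2% of the young (24 of 52, interval 32.2 to 60.5) and 17.7% of the old (11 of 62, interval 9.20 to 29.5). Its mean was 3.35 ± 3.63 (SD, 52 cells) and 1.30 ± 2.60 (SD, 62 cells), a difference of -2.04, and 16595 and 3837 reads were counted. *Lig1* also had the largest cycling difference of the list in young cells in the main setting. There 19 of 27 cycling and 5 of 25 other cells expressed it, and the medians were 6.57 and 0. With the wider list of cycle genes it stayed the largest (3.54). Thinning put *Lig1* at 2.06, *H2afx* at 2.23 and *Ddb1* at -3.04. Where 2 of the 4 mitotic genes were required, *Rpa2* (2.94) and *Brca2* (2.91) exceeded *Lig1* (2.50). In the main setting the cycling difference of *Lig1* was 3.60 in young and 1.43 in old cells. Among the other cells its level was 1.48 in young and 1.0 in old cells, a difference of -0.47, and among cycling cells the difference was -2.65.

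*Apex1*, the endonuclease that cuts at abasic sites, ran from 0 to 7.55 with a median of 0.42 in young cells and from 0 to 7.95 with a median of 0 in old cells (means 2.51 and 1.71, difference -0.80). Unlike *Lig1*, it hardly differed between cycling and other young cells (0.17), and its age difference was -0.80 among the other and -0.56 among cycling cells. *Parp1*, which signals strand breaks by poly(ADP-ribosyl)ation, was at 3.22 and 2.46 and was expressed in 24 young and 22 old cells. *Lig3*, the ligase of short-patch repair, ran from 0 to 9.84 with a median of 0.54 in cycling young cells and from 0 to 7.75 with a median of 0 in other young cells, and was higher in the former by 1.02. Its age difference was -0.19. *Xrcc1*, the scaffold that holds Lig3, was at 1.10 and 1.39 and, with 1 of 13 cycling and 11 of 49 other cells expressing it, was the only gene of the list lower by at least 1 in cycling old cells (difference -1.16, which became 0.11 with a wider list of cycle genes). *Ung*, which removes uracil, was expressed in 13 cells of each age (1.46 and 1.35).

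Both mismatch repair genes were lower in old cells. *Msh6* (chromosome 17, 87975050 to 87990892), which takes part in recognising mispaired bases, ran from 0 to 11.26 with a median of 1.22 in young cells and from 0 to 7.89 with a median of 0 in old cells, and 7 young cells lay above the highest old cell. Its transcript was found above the limit in 42.3% of young (22 of 52, interval 28.7 to 56.8) and 16.1% of old cells (10 of 62, interval 8.02 to 27.7). Its mean was 2.97 ± 3.43 (SD, 52 cells) and 0.99 ± 2.21 (SD, 62 cells), a difference of -1.98, and the reads were 16666 and 1404. By the ratio of mean CPM the difference was -3.29. In contrast with *Lig1*, *Msh6* was lower in old cells by at least 1 in both classes, with differences of -1.44 among other and -2.12 among cycling cells, and it was higher in cycling cells by 1.29 in young and 0.61 in old HSCs. With the wider list of cycle genes these age differences were -2.57 and -1.03 and the cycling differences 0.17 and 1.70. *Pms2*, of the complex that cuts the strand to be replaced, ran from 0 to 9.30 with a median of 1.07 in young and from 0 to 7.48 with a median of 0.95 in old cells. Its mean was 1.94 and 1.41, and it was higher in cycling young cells by 1.01 and lower in cycling old cells (difference -0.37).

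In nucleotide excision repair, 3 of the 6 genes were lower and 3 higher in old cells, and the median cycling difference in young cells was -0.10. *Xpc* (chromosome 6, 91489305 to 91515888), which finds helix-distorting lesions, ran from 0 to 10.19 with a median of 2.57 in young cells and from 0 to 9.52 with a median of 0 in old cells. Expressing cells were 57.7% of the young (30 of 52, interval 43.2 to 71.3) and 27.4% of the old (17 of 62, interval 16.9 to 40.2). Its mean was 3.10 ± 3.05 (SD, 52 cells) and 1.51 ± 2.45 (SD, 62 cells), a difference of -1.59, with 9249 and 2988 reads. Of these reads, 1 young cell held 38.1% of the young and 1 old cell 51.4% of the old. The cycling differences of *Xpc* were -0.18 in young and 0.24 in old cells (0.51 and 0.20 with the wider list of cycle genes), and its age difference was -1.73 among other and -1.31 among cycling cells.

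*Ercc1*, part of the nuclease that cuts on the 5′ side of a lesion, had a median of 0 at both ages and highest values of 8.42 and 7.82, with means of 1.18 and 0.49. *Xpa*, which verifies the damage, ran from 0 to 8.05 in cycling and from 0 to 9.24 in other young cells, with medians of 0, and was expressed in 8 young and 7 old cells. *Ercc2*, a helicase of the TFIIH complex, was expressed in 3 cells of each age. *Ddb1*, the adaptor of the Cul4 ubiquitin ligase that acts on ultraviolet damage with Ddb2, was expressed in 35 young and 40 old cells, and its level was 4.60 and 4.71. In young cells its median was 3.06 in cycling and 6.58 in other cells, with ranges from 0 to 9.68 and from 0 to 10.81, and the difference in mean was -1.48. With the wider list of cycle genes this became 1.61, so its direction rests on how cycling cells are defined. *Ddb2* was expressed in 3 young and 7 old cells (0.48 and 0.72), and 1 cell held 95.8% of its young reads.

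**Figure D4:**
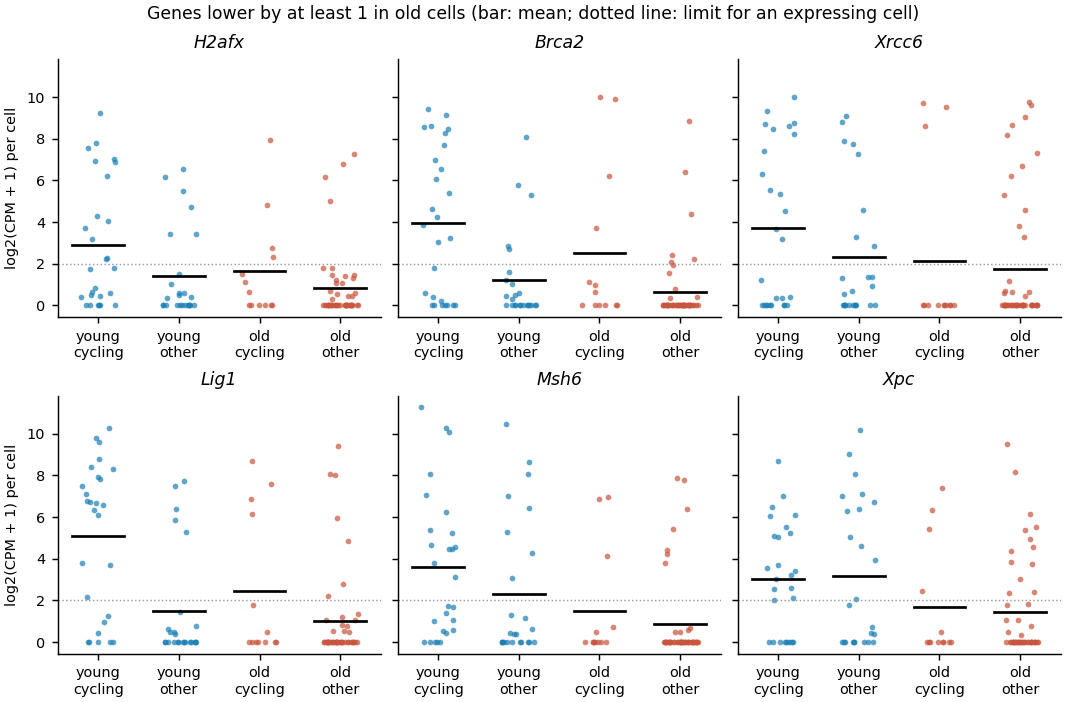
Values of log2(CPM + 1) in each of the 114 cells for the 6 genes lower by at least 1 in old cells, by age and cycle class (27, 25, 13 and 49 cells), with the class mean as a bar and the limit of 2 for an expressing cell as a dotted line. Expressing cells occur in every class, and the class means of *Lig1* run from 5.08 in cycling young to 1.0 in other old cells, whereas those of *Xpc* are 3.0 and 3.19 in young and 1.70 and 1.46 in old cells.

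Because cycling cells were more frequent in the young mouse, the ages were compared within each class. Among cells with no mitotic gene above the limit (25 young and 49 old), the median difference over the 38 genes was -0.15, against 0.02 over all genes. In old cells 21 genes were lower (55.3%, against 43.9% of all genes) and 17 higher. *Msh6* and *Xpc* were lower by at least 1 (5.26%, against 4.14% of all genes) and *Rpa1* higher (2.63%, against 7.47%). Under the wider list of cycle genes the median was 0, and 6 genes were lower by at least 1, *Atr*, *Chek2*, *Apex1*, *Msh6*, *Ercc1* and *Xpc* (15.8%, against 6.41% of all genes), and 3 higher, *Rpa1*, *Rpa2* and *Xrcc1* (7.89%, against 11.7%). Leaving out 1 cell moved the median to between -0.21 and 0.02. Among cycling cells (27 young and 13 old), the median was -0.58, against -0.03 over all genes. Here 14 of the 38 genes were lower by at least 1 (36.8%, against 12.5% of all genes) and 1, *Trp53bp1*, was higher (2.63%, against 7.75%). Over genes expressed in at least 10% of cells, these shares were 38.7% against 19.1% lower and 3.23% against 11.4% higher. The 14 lower genes of the 38 included *Lig1* (-2.65), *Msh6* (-2.12), *Rpa2* (-1.64), *Parp1* (-1.58), *Xrcc6* (-1.58), *Brca1* (-1.51) and *Brca2* (-1.48). With the wider list the median among cycling cells was -0.28 and 5 genes were lower by at least 1, *H2afx*, *Brca2*, *Lig1*, *Msh6* and *Xpc* (13.2%, against 5.97% of all genes). In both classes 17 genes were lower in old cells (44.7%, against 26% of all genes), and 6 were higher (15.8%, against 23.4%), the latter being *Rad50*, *Atm*, *Fanci*, *Ung*, *Ercc2* and *Ddb2*. Under the wider list these counts were 14 (36.8%, against 22.2%) and 9 (23.7%, against 27.7%).

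The class of cycling old cells was mixed. At least 2 of the 4 mitotic genes were expressed in 15 young but only 3 old cells, and these 3 old cells expressed 21, 22 and 7 of the 38 repair genes. Under this stricter definition the median difference between cycling and other old cells was 1.10 and the age difference among cycling cells 0.088, values that rest on those 3 cells.

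Counted cell by cell, a young HSC expressed a median of 12 of the 38 genes (range 4 to 23) and an old HSC 8 (range 3 to 22). Cycling young cells expressed a median of 14 and other young cells 10, while both classes of old cells expressed 8. The ranges overlapped between all 4 classes, and 22 genes were expressed in 1 old cell of each class. Relative to all genes expressed in the cell, the medians were 0.321% in cycling young, 0.251% in other young, 0.222% in cycling old and 0.219% in other old cells. After thinning to 250000 reads the medians were 13 in young and 9.5 in old cells. With the classes of the unthinned reads they were 15, 11, 10 and 9 by class. With classes set again on the thinned reads they were 13, 11, 9.5 and 9.5. The ages were in the same order each time.

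**Figure D5:**
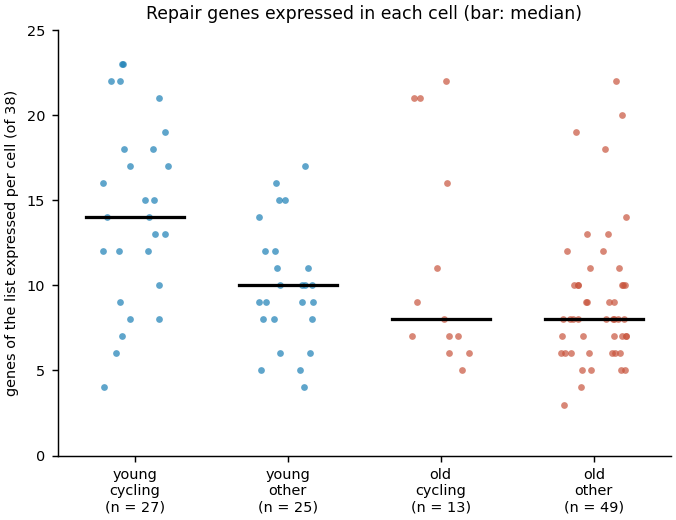
Number of the 38 repair genes expressed (log2(CPM + 1) above 2) in each cell by age and cycle class, with the median as a bar. The medians are 14 and 10 in cycling and other young cells and 8 in both classes of old cells, and 5 old cells reach 20 or more.

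A further 99 genes of the same pathways that the table holds were measured. Of these, 66 were lower and 33 higher in old cells, where 53.8% of all genes were lower, and the median difference was -0.21. Lower by at least 1 were 10 (10.1%, against 4.49% of all genes) and higher 0 (against 3.91%). Largest were the differences of *Topbp1* (-1.63), which activates Atr, *Tipin* (-1.60) and *Clspn* (-1.38), which act with it at replication forks, *Parp2* (-1.49), a relative of *Parp1*, and *Neil3* (-1.25), a glycosylase. *Rif1* (-1.15), which limits end resection, *Fen1* (-1.09), the flap nuclease that acts before Lig1, and *Uimc1* (-1.08), which binds ubiquitin at breaks, followed. *Hus1* (0.95), of the checkpoint clamp, *Ercc3* (0.94), a TFIIH helicase, *Wrn* (0.86), a RecQ helicase, and *Cetn2* (0.70), a partner of Xpc, were higher in old cells. Of the 99 genes, 21 were higher by at least 1 in cycling young cells (21.2%, against 13.1% of all genes). Among cells with no mitotic gene above the limit the median age difference was 0.02, with 6 genes lower (6.06%, against 4.14%) and 5 higher by at least 1 (5.05%, against 7.47%). Of the same genes, 10 of the 76 genes with a promoter window (13.2%) held the E2F-like letters.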

How the data were processed

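Per the labels and the study's methods, single-cell cDNA made on the Fluidigm C1 was sequenced as 51 bp single reads, which the authors mapped to mm10 with TopHat (TopHat2 2.0.10 in the submitters' processing notes) and counted on RefSeq genes, and the deposited values are raw read counts per gene and cell, without normalization or molecular identifiers. Cells with at least 500000 mapped reads, at most 10% mitochondrial reads and at least 3000 detected genes in the study's mapping table were kept. From the counts, CPM, log2(CPM + 1), shares (95% Clopper-Pearson) and summed counts (95% Poisson) were computed, with 3 counts as the limit for a share of 0. No doublet caller was run. Genes of the list were matched by symbol, and positions come from RefSeq on GRCm38.p6. Of the 38 genes, 20 overlap another RefSeq gene, and nothing in the methods says that strand was used in counting. Reads shared with overlapping genes were not separated.

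The genes, the lists of pathway genes and markers, the motifs and the comparisons were chosen with earlier results of these data known. Every gene of the list is named, with values by cell for the 2 genes of each role with the largest difference in age and in cycle class, and of the further pathway genes the 8 largest falls and 4 largest rises among those expressed in at least 10% of cells. A call is a difference of at least 1 on the log2 scale, since 1 mouse per age allows no test. Alternatives covered the cells used, pseudocount, scaling (TMMwsp factors of edgeR 4.0.16), thinning, filters and the definition of cycling cells. The age difference was tested on simulated counts, where known changes larger than the limit of a call had to take the right direction. The cycle classes, shares and motifs were not simulated. The software was R 4.3.3 and Python 3.11.15 with scipy 1.17.1, numpy 2.4.6, pandas 2.3.3 and matplotlib 3.10.9.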

Additional observations from a re-analysis of the deposited data

How the results depend on the processing

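No paired analysis was possible because each age is 1 mouse and the numbers of its cells only name them. The median difference of the 38 genes, old minus young, was negative under every alternative run, from -0.73 to -0.31, and the cycling difference was positive under every one, from 0.34 to 0.88 in young and from 0.052 to 1.10 in old cells. The age difference of cells that were not cycling ran from -0.30 to 0.016 and that of cycling cells from -0.91 to 0.088. Requiring 2 of the 4 mitotic genes gave 1.10 for cycling old cells and 0.088 for the age difference of cycling cells, with 3 old cells in the class. Genes lower by at least 1 numbered 14 with a pseudocount of 0.1 CPM and 15 by the ratio of mean CPM, against 6, and between 6 and 8 when 1 cell was left out. Over all cells deposited they were 5, with *H2afx* at -0.98 and *Xrcc6* at -0.71 and with *Chek2* added at -1.14. With 1 read as the limit for expression, 19.5 genes per young and 14 per old cell were counted, and with a limit of 5 there were 6 and 4, against 12 and 8. The planned wider list of cycle genes put 52 of 52 young and 61 of 62 old cells among the cycling, because *Tyms* was expressed in nearly all, so comparisons with other cells gave no value. The list without *Tyms* was added after seeing the data, as was leaving out each cell. With it, the cycling difference of *Ddb1* in young cells was 1.61 in place of -1.48 and that of *Xrcc1* in old cells 0.11 in place of -1.16. The cycling difference changed sign for 8 genes in young (21.1%, against 25.3% of all genes) and 14 in old cells (36.8%, against 26.9%). Among cycling cells 5 genes were then lower by at least 1 in place of 14, and among the others 6 in place of 2. For 8 genes the age difference changed sign under some setting, none of them among the 6 lower by at least 1. The scalings moved the median of all genes by less than 0.1. The 7 genes expressed in under 10% of cells can differ little on this scale, and the causes of these movements were not tested.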

Other observations

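The 21 cells that did not pass the limits, 9 young and 12 old, expressed fewer of the 38 repair genes, with medians of 6 and 5 per cell and ranges of 3 to 8 and 2 to 11, and they also expressed fewer genes in all, with medians of 2760 and 2778. Over all cells, kept or not, the median difference of the 38 genes, old minus young, was -0.36.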
